A study of Mus musculus with 3 samples.

Results

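Il10, Il10ra, Il10rb, Tgfb1, Tgfbr1, Tgfbr2, Socs3 and Tsc22d3 are the ligand, receptor and target genes of interleukin 10 (IL-10) and transforming growth factor beta (TGF-beta) signalling described here, 8 of 31017 gene symbols counted. They were chosen by symbol, and all 8 were found. The cells were CD45+ cells from digested muscle of the stomach wall of female C57bl/6 mice, CD45 being the common surface protein of leukocytes. There were 3 single-cell libraries of 1 group, labelled NonDiabetic, with no other treatment or allele and no age in the labels, which do not say whether the libraries came from separate animals. The spread behind each p-value is therefore that of 3 libraries and could be technical alone. Comparisons were made between cell classes and macrophage subsets within libraries.

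Cells were kept with at least 1000 unique molecular identifiers (UMIs, each marking 1 captured RNA molecule) and at most 15% mitochondrial UMIs. That left 522, 1692 and 1216 cells in replicates 1, 2 and 3, with median totals of 9182.5, 5699.5 and 7501.5 UMIs. Of the 3430 kept barcodes, 4 occurred in more than 1 library. Classes were gated on marker genes, and none of the 8 genes was a marker. Macrophages numbered 198, 663 and 738, and each of their 10 markers was found in at least 25% of them. C1qa was in 98.7% of macrophages and in 36.9% of the other kept barcodes, and Apoe in 96.7% and 63.6%. ILC2-like cells (group 2 innate lymphoid cells) numbered 113, 172 and 141 and dendritic cells 44, 87 and 75. Of the markers of ILC2-like cells 8 of 9, and of those of dendritic cells 7 of 13, were in at least 25% of the class. Monocyte-like cells (29 in all), T or NK cells (42), mast cells (43) and stromal cells (63, of which 44 were in replicate 1) were few, and stromal cells are not expected behind a CD45 gate. Replicate 2 stood apart, with 502 barcodes that mixed markers of several classes, against 12 in replicate 1 and 22 in replicate 3. These mixed barcodes entered no class.

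IL-10 is a cytokine that restrains inflammatory gene expression in myeloid cells, and macrophages of the gut wall are a known source of it. It binds a receptor of the ligand-binding chain IL-10RA and the shared chain IL-10RB, which acts through the kinases JAK1 and TYK2 and the transcription factor STAT3. TGF-beta 1 is released from a latent complex and binds TGFBR2, which activates TGFBR1 and through it the SMAD transcription factors. Socs3 encodes a feedback inhibitor of cytokine signalling and is a STAT3 target, and Tsc22d3 encodes GILZ, a protein induced by glucocorticoids.

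In the annotation of mouse build GRCm38 all 8 genes are protein-coding, and counts are of whole genes read from the 3' end. Il10 (ENSMUSG00000016529) lies at chr1:131019845-131024974 on the plus strand and Tgfb1 (ENSMUSG00000002603) at chr7:25687002-25705077, plus. Il10ra (ENSMUSG00000032089) lies at chr9:45253837-45269149, minus, Il10rb (ENSMUSG00000022969) at chr16:91406164-91425834, plus, Tgfbr1 (ENSMUSG00000007613) at chr4:47353222-47414931, plus, and Tgfbr2 (ENSMUSG00000032440) at chr9:116084293-116175360, minus. Socs3 (ENSMUSG00000053113) lies at chr11:117966079-117970047, minus, and Tsc22d3 (ENSMUSG00000031431) at chrX:140539528-140600659, minus.

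Socs3 and Tsc22d3 were the members called between macrophages with and without Il10 RNA, Socs3 higher and Tsc22d3 lower. The Tsc22d3 call was lost in DESeq2 (adjusted p = 0.152). A promoter window of each holds the spaced palindrome TTCNNNGAA that STAT factors are known to bind, and a link between the match and these differences was not tested. Windows of 300 bases (250 before to 50 after the start site) came from RefSeq with build GRCm38.p6, where 5 of the 8 members matched, with 8 windows in all. Il10, Il10ra and Il10rb had no window and were not searched. The Socs3 window is chr11:117969317-117969616 on the minus strand, and its match begins at -154 from the start site. Of 3 windows of Tsc22d3, the one at chrX:140548522-140548821 on the minus strand holds a match, at -207. Capitals mark the match, and both strands were searched.
Socs3: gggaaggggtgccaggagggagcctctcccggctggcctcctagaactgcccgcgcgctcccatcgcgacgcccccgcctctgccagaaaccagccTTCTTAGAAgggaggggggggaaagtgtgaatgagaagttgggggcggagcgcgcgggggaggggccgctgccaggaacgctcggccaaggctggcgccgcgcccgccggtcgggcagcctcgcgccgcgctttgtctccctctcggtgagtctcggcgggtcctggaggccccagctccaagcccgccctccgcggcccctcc
Tsc22d3: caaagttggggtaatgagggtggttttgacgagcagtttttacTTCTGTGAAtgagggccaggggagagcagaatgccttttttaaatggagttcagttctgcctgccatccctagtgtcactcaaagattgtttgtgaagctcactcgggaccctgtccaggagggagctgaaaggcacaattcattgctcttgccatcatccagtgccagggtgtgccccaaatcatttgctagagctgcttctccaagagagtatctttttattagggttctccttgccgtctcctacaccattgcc
The same palindrome is present in 2726 of 32851 windows of that length (8.30%), so a match is a description and not a site shown to be used. That share is per window, whereas Tsc22d3 had 3 windows in which a match could occur. The windows of Tgfb1, Tgfbr1 and Tgfbr2 do not hold these letters. A second motif, the GC box GGGCGG, was also searched and is present in 11714 of 32851 windows (35.7%). Windows of Socs3, Tsc22d3, Tgfb1 and Tgfbr1 hold it, and that of Tgfbr2 does not.

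Among the gated classes, Il10, the ligand, was highest in macrophages, which held 6256 Il10 UMIs, against 46 in ILC2-like cells and 20 in dendritic cells. Another 730 Il10 UMIs lay in the mixed barcodes and 92 in barcodes that met no gate, which are in no class. Summed over macrophages and scaled to the class total as CPM, Il10 stood at 780.3, 589.2 and 232.2 CPM in replicates 1, 2 and 3, a mean of 534 ± 278 CPM (SD, n = 3). Dendritic cells of the same libraries had 6.28, 6.86 and 4.20 CPM and ILC2-like cells 11.7, 26.2 and 4.47 CPM. Every macrophage value lay far above every value of the other 6 classes plotted, while macrophages themselves differed more than 3-fold between replicates 1 and 3. In edgeR's quasi-likelihood test, with p-values adjusted over all genes tested, Il10 was higher in macrophages than in dendritic cells by a log2 fold change of 6.27 ± 0.25 (SE, adjusted p = 4.25e-09). Over ILC2-like cells it was higher by 5.06 ± 0.28 (adjusted p = 3.86e-11), which became 6.05 when likely doublets were removed and 4.57 and 5.84 without replicates 1 and 2. T or NK cells, which as regulatory T cells can make the cytokine, held 0 Il10 UMIs in 42 cells, a count that permits up to 7.14% of such cells to have a UMI at this depth (3 counts over all 42 cells) and sets no limit on how many express the gene.

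At equal depth, macrophages also had a higher share of cells with an Il10 UMI than dendritic and ILC2-like cells. With every cell thinned to 1000 UMIs, Il10 was found in 17.6% ± 6.67 of macrophages, against 0.383% ± 0.664 of dendritic cells and 1.26% ± 0.611 of ILC2-like cells (SD, n = 3). Unthinned shares were 32.3% of macrophages, 9.01% of dendritic cells and 5.74% of ILC2-like cells, at median totals of 7130 to 8905 UMIs in macrophages, 13417 to 21115.5 in dendritic cells and 6274 to 8858 in ILC2-like cells. C1qa, a complement gene of macrophages that ILC2 should lack, was found in 2.27% of thinned ILC2-like cells, above their Il10 share, and in 2.73% of thinned dendritic cells. The UMIs of both genes did not keep 1 ratio between classes: ILC2-like cells had 13, 29 and 4 Il10 UMIs beside 8, 28 and 26 of C1qa, whereas macrophages had 1316, 3548 and 1392 of Il10 beside 5589, 22087 and 27472 of C1qa. Relative to C1qa, Il10 was thus higher in ILC2-like cells of every library. C1qa was itself a marker of the macrophage gate, however, and Il10 was not. The gates selected macrophages for such markers and set aside barcodes that mixed markers, so gating itself can shift this ratio between classes. Where the few Il10 UMIs of ILC2-like cells came from was not tested, and the ratio cannot show it. Mast, monocyte-like and stromal cells, which held 2, 4 and 2 Il10 UMIs in all, spanned 0 to 25.3 CPM, and their values overlapped.

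**Figure D1:**
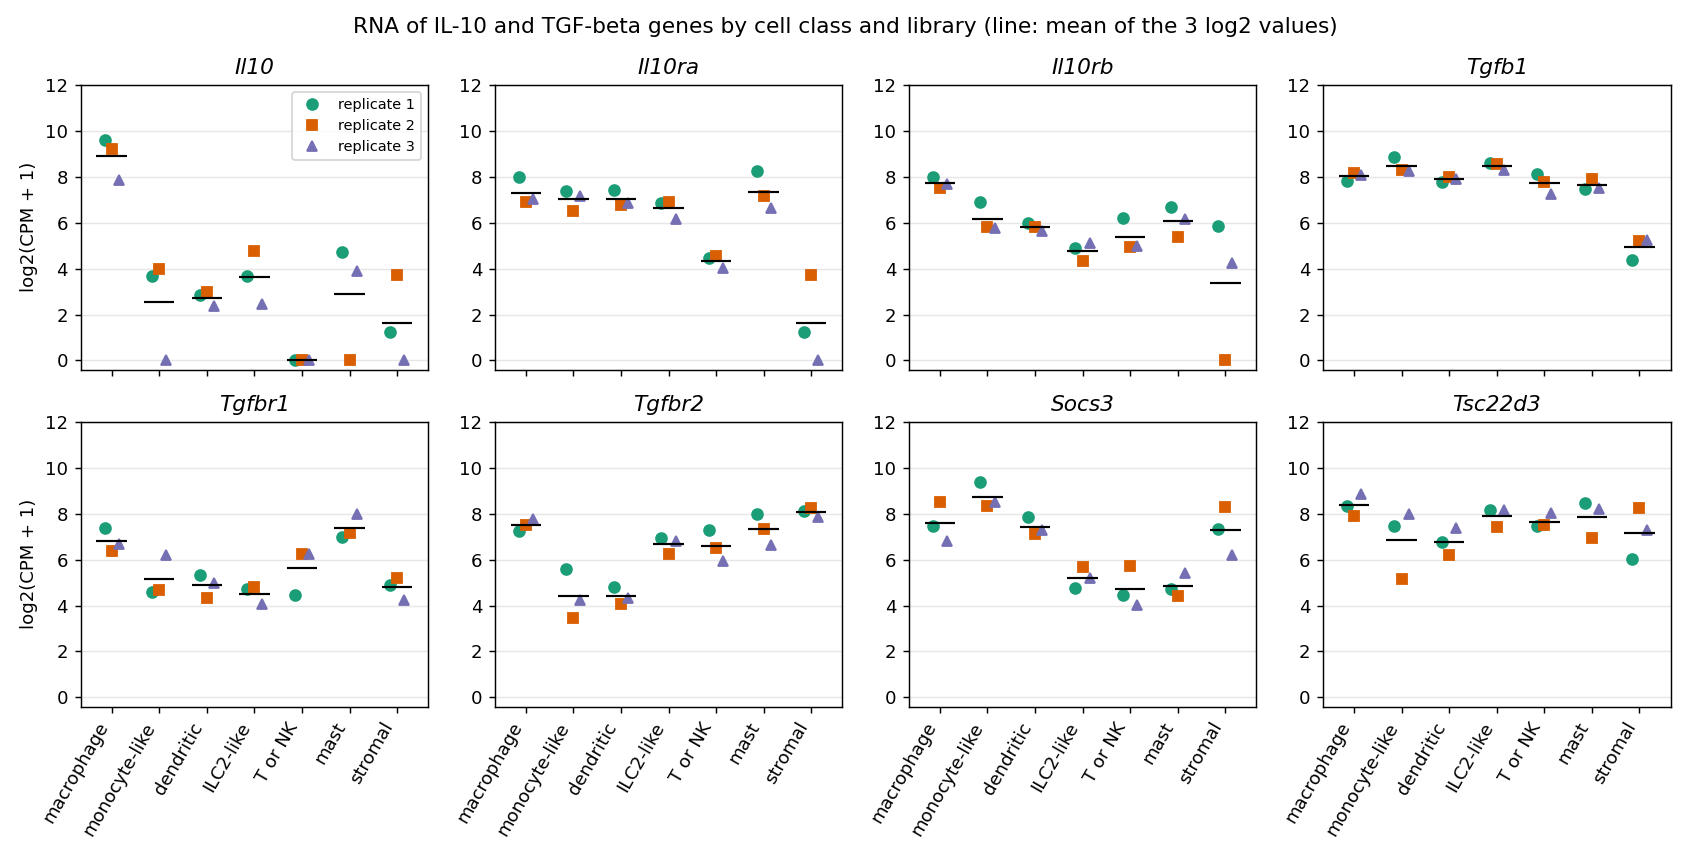
RNA of the 8 genes in 7 cell classes, 1 panel per gene, as log2(CPM + 1) on the vertical axis. Each point is the summed profile of 1 library (circle, square and triangle for replicates 1, 2 and 3) and the line is the mean of the 3 log2 values. Il10 is high in macrophages. Tgfb1 is present in all leukocyte classes plotted, with means of 200 CPM (mast cells) to 362 CPM (monocyte-like cells), and of the plotted classes is lowest in stromal cells (mean 30.8 CPM).

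Within macrophages Il10 RNA was packed into a minority of cells. It was found in 32.8%, 43.4% and 20.6% of macrophages of replicates 1, 2 and 3 without thinning. Cells with Il10 had a median of 10, 6 and 4 Il10 UMIs, and the highest single cells had 179, 103 and 56. The top 10% of macrophages, ranked by Il10 UMIs and rounded up to whole cells, held 80.9%, 68.7% and 89.9% of all macrophage Il10 UMIs. The receptor gene Il10ra was spread more evenly, with 32.2%, 38.7% and 38.3% of its UMIs in its top 10% and at most 11 UMIs in a cell. Il10rb, Tgfb1 and Tgfbr2 had 30.5% to 41.8% in their top 10%, and Socs3 had 68.2%, 48.8% and 66.5%. These shares also depend on each gene's level, so they describe the data and were not tested.

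**Figure D2:**
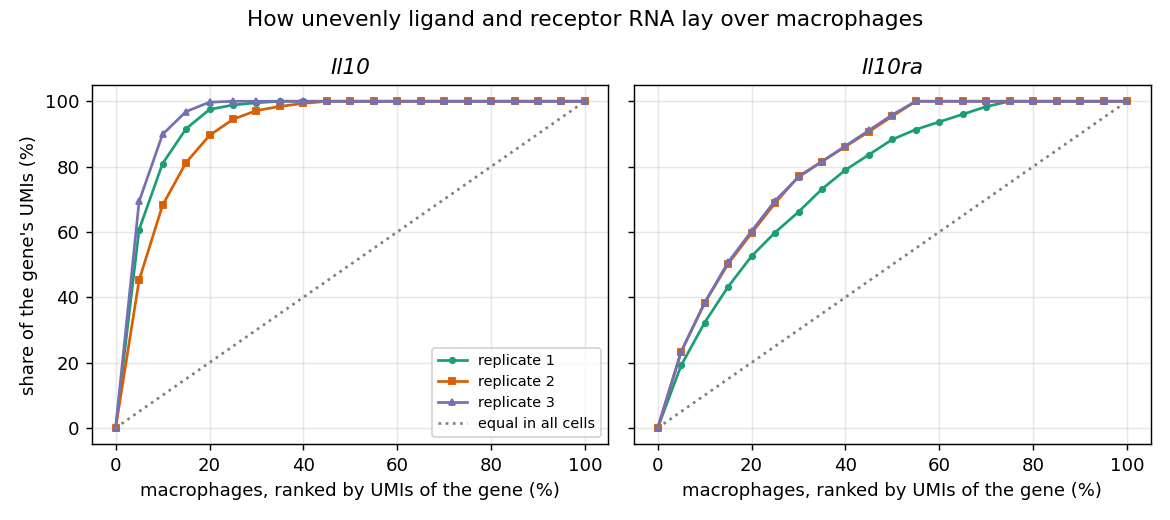
Cumulative share of Il10 (left) and Il10ra (right) UMIs, in percent, against the share of macrophages ranked by UMIs of that gene, in percent, with 1 line per library and a dotted line for equal UMIs in all cells. Il10 lines reach 68.2% to 89.9% at 10% of cells, and Il10ra lines reach 32.2% to 38.3%.

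Tgfb1, the other ligand, was present in every leukocyte class plotted and was not particular to macrophages. B or plasma cells (28 in all) and granulocytes (6) were gated but are not plotted. In replicate 2, Tgfb1 stood at 162 CPM in 26 B or plasma cells and rested on 2 UMIs in 4 granulocytes. The 1 granulocyte of replicate 1 and the 1 of replicate 3 had 0 Tgfb1 UMIs. Macrophages had 227.1, 282.1 and 271.0 CPM, dendritic cells 217.7, 255.8 and 235.2 CPM and ILC2-like cells 386.8, 373.4 and 315.1 CPM. ILC2-like cells were above macrophages in all 3 libraries and without overlap, and macrophages were lower by a log2 fold change of -0.66 ± 0.15 (adjusted p = 0.00115). Macrophage and dendritic cell values overlapped. Macrophage CPM was slightly higher in each library, while the fit, which rescales libraries, gave a log2 fold change of -0.09 ± 0.14 (adjusted p = 0.668) whose sign turned when cells were thinned to 1000 UMIs (0.12). Monocyte-like cells had the highest mean, 362 ± 92.5 CPM, overlapping the ILC2-like range, and T or NK and mast cells had 216 ± 64.5 and 200 ± 35.2 CPM. Of the classes plotted, stromal cells were lowest, at 19.9, 36.0 and 36.4 CPM.

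The 2 chains of the IL-10 receptor were distributed differently. Il10ra, the ligand-binding chain, stood at 253.8, 119.7 and 129.2 CPM in macrophages, at 169.5, 108.4 and 114.5 CPM in dendritic cells and at 114.9, 119.0 and 71.5 CPM in ILC2-like cells. The values of macrophages and dendritic cells overlapped, and replicate 1 was the highest for both. Neither difference passed the test: the log2 fold change was 0.08 ± 0.17 over dendritic cells (adjusted p = 0.736, and -0.12 without replicate 1) and 0.46 ± 0.21 over ILC2-like cells (adjusted p = 0.0724). Without replicate 2 the difference from ILC2-like cells was 0.85 and passed (adjusted p = 0.00024), and with no filter on low counts it was 0.56 (adjusted p = 0.00556). Mast and monocyte-like cells overlapped macrophages, at 181 ± 108 and 133 ± 38.4 CPM. T or NK cells were lower and without overlap with these classes, at 20.8, 22.3 and 15.2 CPM.

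Il10rb, the chain shared with receptors of related cytokines, was highest in macrophages among the classes plotted. Macrophages had 249.6, 182.2 and 203.5 CPM, dendritic cells 61.7, 55.6 and 49.4 CPM and ILC2-like cells 28.7, 18.9 and 33.5 CPM. The macrophage range did not overlap that of any other class shown, and the log2 fold changes were 1.69 ± 0.17 over dendritic cells (adjusted p = 7.07e-06) and 2.79 ± 0.20 over ILC2-like cells (adjusted p = 1.76e-09). Next in order came monocyte-like cells at 75.4 ± 36.1 and mast cells at 70.4 ± 30.5 CPM, which did not differ beyond their spread.

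Both TGF-beta receptor genes were higher in macrophages than in dendritic cells and ILC2-like cells. Tgfbr2, the chain that binds the ligand first, stood at 151.2, 179.2 and 214.3 CPM in macrophages, at 27.2, 15.8 and 18.9 CPM in dendritic cells and at 122.0, 74.9 and 111.7 CPM in ILC2-like cells. Dendritic cells were low in every library, and the log2 fold change was 2.94 ± 0.21 over them (adjusted p = 5.34e-07) and 0.63 ± 0.17 over ILC2-like cells (adjusted p = 0.00455). The second of these was 0.46 with an adjusted p of 0.0559 without replicate 2. Stromal cells had the highest Tgfbr2 of the classes plotted, 277.2, 300.3 and 227.5 CPM, above every macrophage value.

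Tgfbr1, the signalling chain, stood at 163.6, 82.7 and 101.7 CPM in macrophages, at 38.7, 19.2 and 30.5 CPM in dendritic cells and at 25.1, 27.1 and 15.6 CPM in ILC2-like cells. The ranges did not overlap, with log2 fold changes of 1.76 ± 0.19 (adjusted p = 1.31e-05) over dendritic cells and 2.12 ± 0.24 (adjusted p = 7.23e-07) over ILC2-like cells. Mast cells overlapped macrophages, at 126.3, 140.2 and 252.8 CPM, from 8 to 18 cells a library.

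Socs3, the feedback inhibitor, varied between libraries and, of the classes plotted, had its highest mean in monocyte-like cells, overlapping macrophages. Its level was 667.6, 324.7 and 360.9 CPM in monocyte-like cells, 175.5, 369.0 and 111.9 CPM in macrophages, 231.3, 135.8 and 157.5 CPM in dendritic cells and 26.0, 50.5 and 35.8 CPM in ILC2-like cells. Replicate 2 was the highest library for macrophages and the lowest for dendritic cells. Socs3 was higher in macrophages than in ILC2-like cells by 2.27 ± 0.23 (adjusted p = 1.35e-07), without overlap. Against dendritic cells the log2 fold change was -0.03 ± 0.30 (adjusted p = 0.956), and it was -0.65 with an adjusted p of 0.0239 without replicate 2.

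Tsc22d3, the gene of GILZ, was at 322.5, 236.3 and 465.5 CPM in macrophages, at 107.8, 72.7 and 164.9 CPM in dendritic cells and at 285.4, 168.6 and 287.2 CPM in ILC2-like cells. Replicate 3 was highest and replicate 2 lowest in all 3 classes. Macrophages exceeded dendritic cells by 1.37 ± 0.15 (adjusted p = 1.93e-05) and did not pass the test against ILC2-like cells (0.25 ± 0.15, adjusted p = 0.168; adjusted p = 0.037 without replicate 1).

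Of the 8 members, 5 were higher and 0 lower in macrophages than in dendritic cells, where 20.1% of 9135 genes tested were called higher, 18.9% lower and 38.9% in all. Over ILC2-like cells 5 were higher and 1 lower, where 29.4% of 9295 genes were called higher, 25.7% lower and 55.1% in all. Calls were thus common among all genes in both comparisons.

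**Figure D3:**
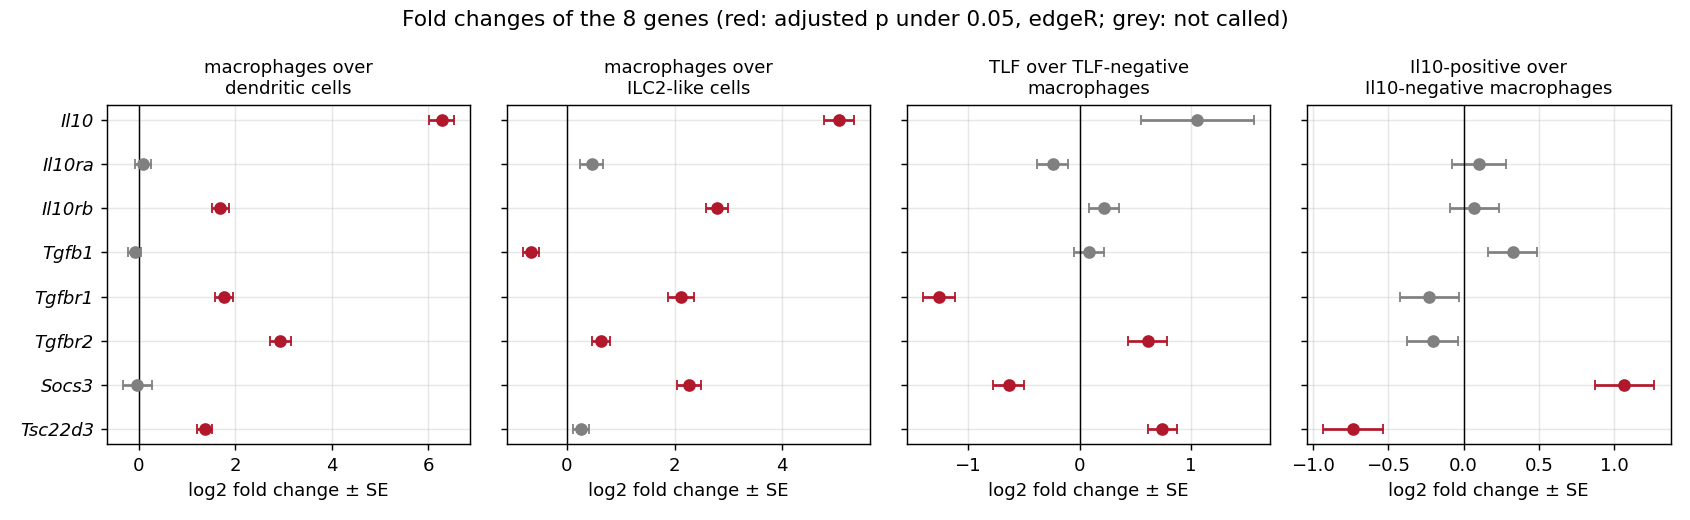
Log2 fold change ± SE of the 8 genes in 4 comparisons, 1 panel each, from edgeR's fit over 3 libraries, with red for an adjusted p under 0.05 and grey for genes not called; Il10 has no value in the comparison that its own UMIs define. Il10 is at 6.27 and 5.06 in macrophages over dendritic and ILC2-like cells, and Tgfbr1 and Tgfbr2 lie on opposite sides of 0 (-1.26 and 0.61) in TLF over TLF-negative macrophages.

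Among dendritic cells, described without a test, Il10ra was lowest in those with Xcr1 or Clec9a, markers of type 1 conventional dendritic cells, at 57.1, 54.6 and 46.5 CPM. Those with Cd209a, a marker of type 2 cells, had 189.6, 106.4 and 128.0 CPM, and those with Ccr7, the receptor of migratory cells, had 127.0, 124.6 and 141.7 CPM. The first range lay below the other two in every library. Tsc22d3 was lowest in dendritic cells with Ccr7, at 52.9, 60.9 and 88.1 CPM, against 121.1, 77.9 and 187.9 CPM in those with Cd209a. These groups held 32, 93 and 70 cells.

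Macrophages were then split by the TLF programme, Timd4, Lyve1 and Folr2, known from self-maintaining tissue macrophages. TLF macrophages (at least 2 UMIs of the 3 genes together) numbered 89, 393 and 401, TLF-negative macrophages (0 UMIs) 93, 220 and 277, and 126 cells with 1 UMI were left out. In TLF macrophages 2 members were higher, Tgfbr2 and Tsc22d3, and 2 lower, Tgfbr1 and Socs3, where 9.67% of 9737 genes tested were called higher, 10.7% lower and 20.4% in all. The TGF-beta receptor genes thus moved in opposite directions.

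Tgfbr1 had 114.0, 56.2 and 63.7 CPM in TLF macrophages, against 206.2, 123.4 and 147.8 CPM in TLF-negative macrophages. The groups did not overlap, TLF macrophages were lower in every library, and the log2 fold change was -1.26 ± 0.14 (adjusted p = 0.000119). Tgfbr2 had 152.5, 224.5 and 281.8 CPM in TLF macrophages, against 148.7, 117.4 and 125.4 CPM in TLF-negative macrophages. Replicate 1 showed almost no difference and replicate 3 the most, and the log2 fold change was 0.61 ± 0.17 (adjusted p = 0.0300). The Tgfbr2 call was lost without replicate 2 (0.50, adjusted p = 0.284) and without replicate 3 (0.39, adjusted p = 0.295), in DESeq2 (adjusted p = 0.117), and at 0.44 with a macrophage gate of 100 in place of 50 marker UMIs per 10000 (adjusted p = 0.136).

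Tsc22d3 had 448.5, 295.0 and 556.7 CPM in TLF macrophages, against 219.7, 156.8 and 319.8 CPM in TLF-negative macrophages. It was higher in each library although the ranges overlapped, by 0.74 ± 0.13 (adjusted p = 0.00214). Socs3 had 112.5, 351.5 and 92.8 CPM in TLF macrophages, against 181.4, 392.6 and 144.6 CPM in TLF-negative macrophages. It was lower in each library by -0.64 ± 0.14 on the log2 scale (adjusted p = 0.00885), with replicate 2 high in both groups, and without replicate 3 the value was -0.53 (adjusted p = 0.114). The summed CPM of 18 genes of the response to tissue dissociation was 35783, 31428 and 39160 in TLF macrophages and 29229, 26383 and 34234 in TLF-negative macrophages, and its part in these differences was not tested.

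Il10 was not called between TLF and TLF-negative macrophages, and its value depended on which libraries were included. TLF macrophages had 1650, 707.3 and 216.0 CPM of Il10, against 165.6, 368.9 and 265.0 CPM in TLF-negative macrophages. TLF macrophages were about 10-fold higher in replicate 1, higher in replicate 2 and lower in replicate 3, giving a log2 fold change of 1.06 ± 0.50 (adjusted p = 0.175). Without replicate 1 the value was 0.14 (adjusted p = 0.312) and without replicate 3 it was 1.92 (adjusted p = 7.46e-05). Il10ra, Il10rb and Tgfb1 overlapped between the subsets and were not called (adjusted p = 0.273, 0.289 and 0.710), although without replicate 1 Il10ra was lower in TLF macrophages by -0.34 (adjusted p = 0.0183).

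**Figure D4:**
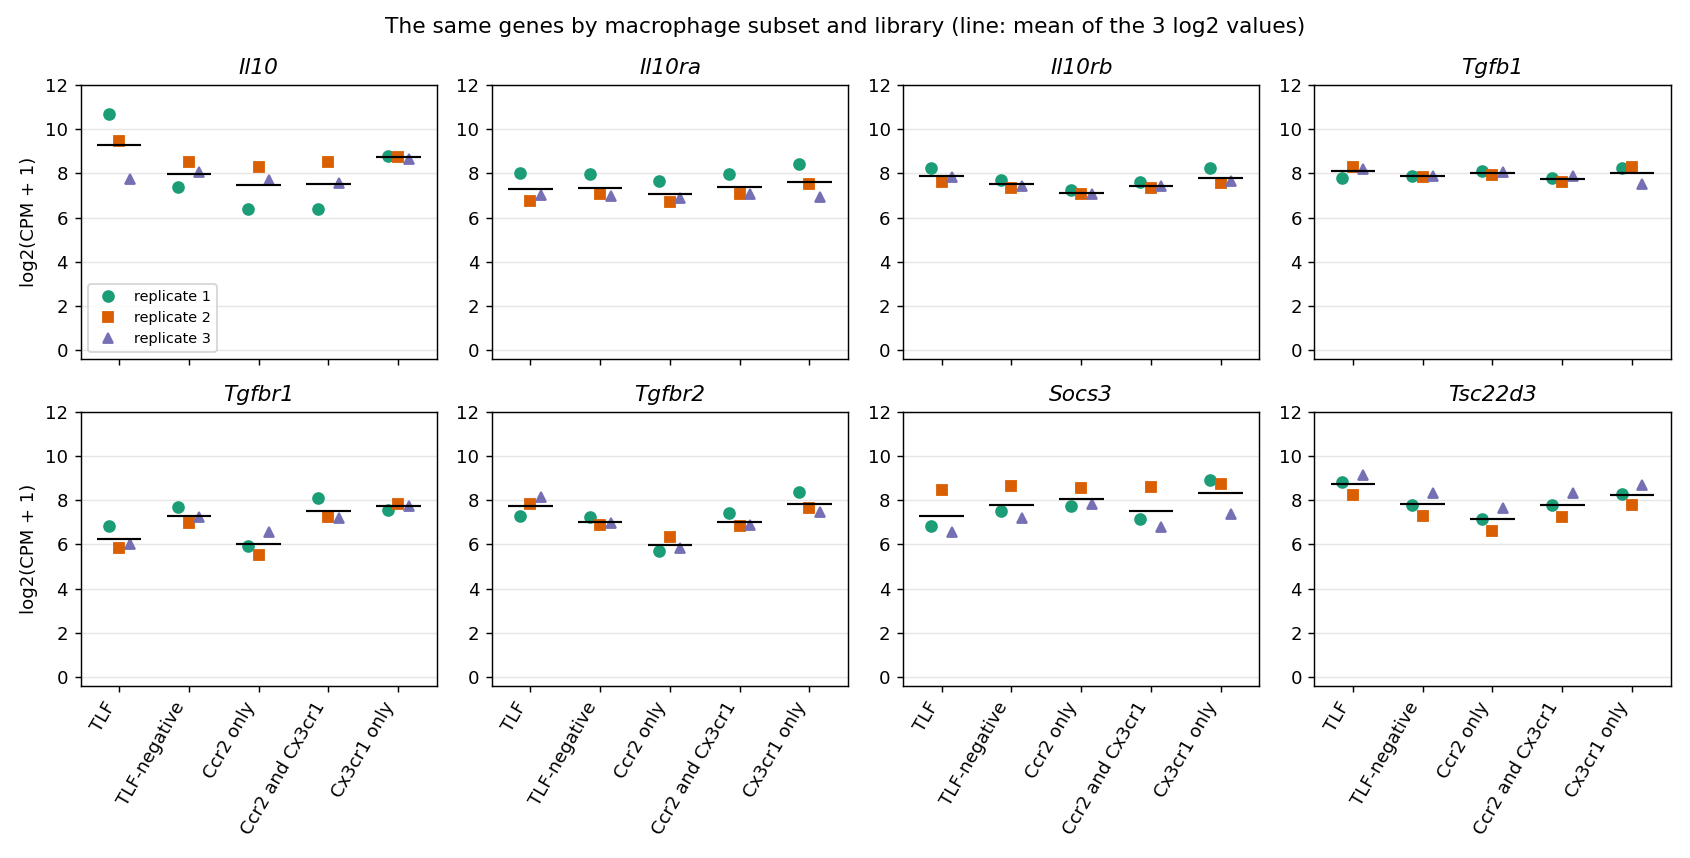
RNA of the 8 genes in macrophage subsets, 1 panel per gene, as log2(CPM + 1), with 1 point per library and a line at the mean of the 3 log2 values; the last 3 subsets are parts of the TLF-negative macrophages. Tgfbr1 is lower in TLF macrophages (means 77.9 against 159 CPM in TLF-negative macrophages), and Tgfbr2 is lowest in Ccr2-only macrophages (mean 62.6 CPM).

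Within TLF-negative macrophages, cells with Ccr2 and no Cx3cr1 UMI numbered 21, 56 and 46, and cells with Cx3cr1 and no Ccr2 UMI numbered 10, 30 and 62, with median totals of 7758 to 10872.5 UMIs and 6990 to 8449.5 UMIs. Ccr2 encodes the receptor that draws monocytes into tissue and Cx3cr1 the fractalkine receptor. Tgfbr2 had 50.6, 80.2 and 56.8 CPM in Ccr2-only macrophages, against 325.2, 196.5 and 175.5 CPM in Cx3cr1-only macrophages. Tgfbr1 had 59.9, 45.1 and 92.7 CPM in Ccr2-only macrophages, against 189.7, 228.6 and 211.0 CPM in Cx3cr1-only macrophages. Both receptor genes were lower in Ccr2-only cells of every library, without overlap. Tsc22d3 was also lower in each library, at 142.7, 95.3 and 200.4 CPM in Ccr2-only against 311.7, 216.6 and 415.8 CPM in Cx3cr1-only macrophages. Il10rb was lower in each library without overlap, at 151.9, 132.1 and 131.6 against 298.1, 188.5 and 200.6 CPM. Il10ra was lower in each library with overlapping ranges, at 198.0, 105.3 and 116.7 against 338.8, 180.5 and 123.3 CPM. In replicates 2 and 3, Il10 was at 311 and 209 against 433 and 407 CPM. Ranges of Tgfb1 and Socs3 overlapped. Cells with UMIs of both Ccr2 and Cx3cr1 had 168.0, 112.2 and 115.4 CPM of Tgfbr2, between the other subsets in each library. Their Tgfbr1 was 273.0, 149.0 and 146.2 CPM, between the other subsets in replicates 2 and 3 and above both in replicate 1.

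No member passed the test between Ccr2-only and Cx3cr1-only macrophages. Replicate 1 was left out of that fit for its 10 Cx3cr1-only cells, so 2 libraries with 1 residual degree of freedom remained. The log2 fold changes were -1.46 ± 0.27 for Tgfbr2 (adjusted p = 0.197), -1.75 ± 0.38 for Tgfbr1 (adjusted p = 0.248) and -1.13 ± 0.25 for Tsc22d3 (adjusted p = 0.260). In this comparison 0.0213% of 4689 genes were called by edgeR (1 gene, Retnla, which encodes a resistin-like protein of alternatively activated macrophages, higher and named after its value was seen), 472 had an unadjusted p under 0.05 and DESeq2 called 16. On simulated counts of the same size, with 1 fixed dispersion and no library effect, the test recovered 0 of 52 genes raised 4-fold. The absence of calls thus carries little. Tgfbr2 passed with a minimum of 2000 UMIs per cell (adjusted p = 0.0441), and with no filter on low counts Tgfbr1, Tgfbr2 and Tsc22d3 passed (adjusted p = 1.73e-04, 0.00477 and 0.0399).

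To ask what else differed in the macrophages that carried Il10, macrophages with at least 3000 UMIs were thinned to 3000 and split by the presence of an Il10 UMI. Il10-positive macrophages numbered 42, 204 and 104 and Il10-negative ones 119, 370 and 510. Il10 itself, at 3738, 1796 and 1558 CPM in the positive cells, defined the split and is not a finding. Of the other 7 members Socs3 was higher and Tsc22d3 lower in Il10-positive cells, where 3.47% of 6249 genes tested were called higher, 0.480% lower and 3.95% in all.

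Socs3 had 222.2, 547.4 and 237.2 CPM in Il10-positive macrophages, against 215.7, 263.1 and 81.7 CPM in Il10-negative macrophages. It was higher in each library, barely so in replicate 1, and the ranges overlapped between libraries. The log2 fold change was 1.07 ± 0.20 (adjusted p = 0.00098) and stayed past the threshold without any 1 replicate (0.77 to 1.35). The share of TLF macrophages was 69.0%, 70.1% and 58.7% in Il10-positive cells against 37.0%, 56.8% and 58.4% in Il10-negative cells, and among TLF macrophages alone the Socs3 value was 1.08 (adjusted p = 0.000357).

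Tsc22d3 had 317.5, 120.9 and 371.8 CPM in Il10-positive macrophages, against 364.1, 360.4 and 535.3 CPM in Il10-negative macrophages. Il10-positive cells were lower in each library, most in replicate 2, by -0.73 ± 0.20 (adjusted p = 0.0288). Among TLF macrophages alone the value was -1.04 (adjusted p = 0.000546). The call was lost without replicate 2 (-0.38, adjusted p = 0.615), in DESeq2 (adjusted p = 0.152), with doublets removed (adjusted p = 0.0647), with a 10% mitochondrial limit (adjusted p = 0.0755) and with at least 3 Il10 UMIs asked of positive cells (-0.98, adjusted p = 0.0810).

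The receptor genes and Tgfb1 were not called between Il10-positive and Il10-negative macrophages. The log2 fold changes were 0.10 ± 0.18 for Il10ra (adjusted p = 0.844), 0.07 ± 0.16 for Il10rb (adjusted p = 0.880) and 0.33 ± 0.16 for Tgfb1 (adjusted p = 0.321, and 0.51 with an adjusted p of 0.0346 in unthinned counts). Tgfbr1 and Tgfbr2 were at -0.23 ± 0.20 and -0.21 ± 0.17 (adjusted p = 0.638 and 0.612). Il10ra ranges overlapped, at 285.7, 107.8 and 166.7 CPM in Il10-positive and 268.9, 134.2 and 131.4 CPM in Il10-negative macrophages.

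Of 16 IL-10 pathway genes tested without Il10 itself, 6 were higher in Il10-positive macrophages, 0 lower and 10 not called, with a median log2 fold change of 0.60 beside 0.00 over all genes. Most genes called in this comparison were higher whatever their list, 217 of 247 over all genes (3.47% of genes tested, against 0.480% lower). Il1rn, the interleukin 1 receptor antagonist, averaged 130 CPM in Il10-positive and 76.0 CPM in Il10-negative cells (1.02 ± 0.22, adjusted p = 0.00587). Bcl3, a nuclear inhibitor of NF-kappa-B, Zfp36, which encodes an RNA-destabilising protein, and Etv3, a transcriptional repressor, were higher by 0.82 ± 0.23, 0.80 ± 0.16 and 0.80 ± 0.16 (adjusted p = 0.0376, 0.00234 and 0.00302). Sbno2 and Socs3 were the other genes called. Zfp36 is also a gene of the dissociation list, of which 4 of 18 were higher (Ier3, Nr4a1, Zfp36 and Junb) and 0 lower. That list summed to 38778, 27152 and 51218 CPM in Il10-positive and 32952, 33229 and 36638 CPM in Il10-negative macrophages, higher in replicates 1 and 3 and lower in replicate 2, and its part in these differences was not tested.

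**Figure D5:**
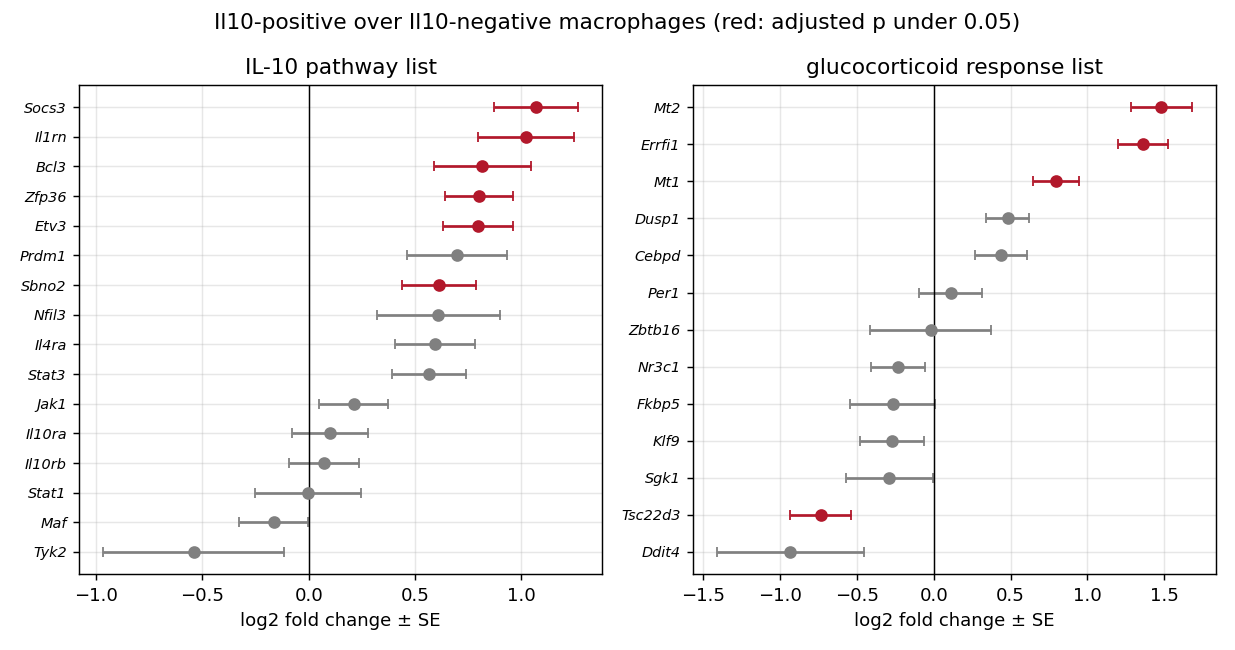
Log2 fold change ± SE of tested genes of the IL-10 pathway list (left, 16 genes) and the glucocorticoid response list (right, 13 genes) in Il10-positive over Il10-negative macrophages, with red for an adjusted p under 0.05. Called IL-10 pathway genes are all to the right of 0, and Mt2 (1.48) and Tsc22d3 (-0.73) lie on opposite sides in the other list.

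Between Il10-positive and Il10-negative macrophages 3.47% of all genes tested were called higher and 0.480% lower. Of 13 glucocorticoid response genes tested, 3 were called higher, 1 lower and 9 not called, with a median log2 fold change of -0.02 beside 0.00. Mt2 and Mt1, which encode metal-binding metallothioneins, and Errfi1, an inhibitor of EGF receptor signalling, were higher by 1.48 ± 0.20, 0.79 ± 0.15 and 1.36 ± 0.16 (adjusted p = 2.36e-05, 0.00121 and 4.35e-06). Tsc22d3 was the 1 gene called lower. Of those not called, Ddit4, Fkbp5, Klf9, Nr3c1, Sgk1 and Zbtb16 were also below 0, and Cebpd, Dusp1 and Per1 above it. In the TGF-beta pathway list 2 of 20 tested were higher, 0 lower and 18 not called, with a median of 0.09 beside 0.00 over all genes. The 2 were Nrros, which encodes a protein that tethers latent TGF-beta on myeloid cells (0.82 ± 0.15, adjusted p = 0.00113), and Tgif1, a SMAD corepressor (0.76 ± 0.17, adjusted p = 0.00687). Of the SOCS family only Socs3 was called among 5 tested. Mt2, Mt1 and Nrros were also called higher in TLF over TLF-negative macrophages (2.00, 0.52 and 0.65). The share of TLF macrophages differed between Il10-positive and Il10-negative cells. Values of Mt1, Mt2, Errfi1, Nrros and Tgif1 among TLF macrophages alone are not given here.

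Over all genes, those with the highest log2 fold change in Il10-positive macrophages were led by Serpinb2, a serine protease inhibitor (3.36 ± 0.54, adjusted p = 0.000245, from 41 against 8 UMIs), and Ptgs2, the prostaglandin synthase COX-2. Ptgs2 averaged 424 ± 268 CPM in Il10-positive and 106 ± 68.4 CPM in Il10-negative macrophages (2.01 ± 0.22, adjusted p = 1.08e-06). The chemokine genes Ccl2, Cxcl1 and Cxcl3, the interferon-induced genes Oasl1 and Rsad2, the adhesion molecule gene Vcam1, the growth factor gene Hbegf and Taf4b followed, at 1.54 to 1.76. Ccl2 averaged 4545 CPM in Il10-positive and 1617 CPM in Il10-negative cells (1.64 ± 0.15, adjusted p = 9.01e-08). Each of these 10 was higher in all 3 libraries. The 10 lowest were Rpp25l, Ebpl, Lyz1, Phf11b, Bmyc, Tnfaip8l2, Arhgap9, Mmp12, Tsn and Ggh, led by Rpp25l at -1.98. Rpp25l rested on 6 UMIs in Il10-positive against 79 in Il10-negative macrophages, and Ebpl on 8 against 83. Lyz1, a lysozyme gene, averaged 52.6 CPM in Il10-positive and 157 CPM in Il10-negative macrophages (-1.42 ± 0.21, adjusted p = 0.000124), and among TLF macrophages alone it was not called (-0.97, adjusted p = 0.111). Of these 10 lower genes only Tsn and Ggh were called among TLF macrophages alone (adjusted p = 0.0202 and 0.0214). Bmyc, Tnfaip8l2, Arhgap9 and Mmp12 were not called there, with Mmp12 at 0.03 (adjusted p = 0.992). Rpp25l, Ebpl and Phf11b were not tested there.

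Of 24 TGF-beta pathway genes tested between TLF and TLF-negative macrophages, 4 were higher, 11 lower and 9 not called, where 9.67% of all genes were called higher and 10.7% lower. Their median log2 fold change was -0.46 beside 0.00 over all genes. Thbs1, which encodes thrombospondin 1, an activator of latent TGF-beta, averaged 4.49 CPM in TLF and 81.7 CPM in TLF-negative macrophages (-3.96 ± 0.30, adjusted p = 1.05e-05). Lrrc32, the gene of the latent TGF-beta docking receptor GARP, was at 1.17 against 7.87 CPM (-2.68 ± 0.53, adjusted p = 0.00434). Itgav, the integrin alpha V chain that can release TGF-beta, was lower by -1.14 ± 0.14 (adjusted p = 0.000205), and Ltbp3, a latent TGF-beta binding protein gene, by -1.04 ± 0.27 (adjusted p = 0.0189). Tgfbr2, Nrros, Smurf2 and Tgfbi were the 4 higher genes.

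The glucocorticoid list had 6 of 13 genes higher and 1 lower in TLF macrophages, with a median of 0.42. Over all genes 9.67% were called higher and 10.7% lower in that comparison. Mt2 averaged 390 CPM in TLF and 83.4 CPM in TLF-negative macrophages (2.00 ± 0.17, adjusted p = 1.9e-05), and Klf9 and Fkbp5, known glucocorticoid receptor targets like Tsc22d3, were higher by 1.06 ± 0.16 and 0.79 ± 0.15 (adjusted p = 0.000696 and 0.00385). In the IL-10 list 1 of 17 was higher and 4 lower. Maf, a transcription factor that promotes Il10 transcription in macrophages, averaged 1606 CPM in TLF and 551 CPM in TLF-negative macrophages (1.44 ± 0.16, adjusted p = 0.000114), and Il1rn was lower by -1.95 ± 0.41 (adjusted p = 0.00604). In the Il10 comparison Maf was not called, at 1123 CPM in Il10-positive and 1279 CPM in Il10-negative macrophages (-0.17 ± 0.16, adjusted p = 0.688). Cish and Socs3 were the 2 of 7 SOCS genes called, both lower, and of 18 dissociation genes 3 were higher and 3 lower. Between Ccr2-only and Cx3cr1-only macrophages no gene of any list was called.

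Against the other classes the lists split by gene. Over dendritic cells 20.1% of all genes were called higher in macrophages and 18.9% lower, and some list counts lie near those shares. Over dendritic cells, 7 of 17 IL-10 pathway genes were higher and 4 lower in macrophages (medians 0.18 and 0.03 for the list and all genes), with Maf at 1133 against 7.07 CPM (7.10 ± 0.22, adjusted p = 1e-09) and Etv3 lower by -1.29 ± 0.16 (adjusted p = 4.73e-05). Of 24 TGF-beta genes 8 were higher and 3 lower (median 0.32), Lrrc32 being lower by -3.43 ± 0.33 (adjusted p = 4.89e-06). Of 13 glucocorticoid genes 8 were higher and 2 lower, of 8 SOCS genes 0 were higher and 2 lower (Cish and Socs2), and of 18 dissociation genes 9 were higher and 6 lower. The dissociation genes summed to 31679, 29126 and 36953 CPM in macrophages and 27128, 13145 and 29105 CPM in dendritic cells, and their part was not tested.

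Over ILC2-like cells 29.4% of all genes were called higher in macrophages and 25.7% lower, and some list counts lie near those shares. Of 17 IL-10 pathway genes 9 were higher and 3 lower in macrophages, with a median of 0.99 beside 0.02 over all genes. Of 23 TGF-beta genes 14 were higher and 6 lower (median 0.73). Tgfbi, a TGF-beta-induced matrix gene, stood at 665 against 6.59 CPM (6.43 ± 0.27, adjusted p = 1.19e-12), and Bambi, a decoy receptor of the TGF-beta family, at 11.7 against 126 CPM (-3.65 ± 0.19, adjusted p = 2.36e-11). Of the 8 SOCS genes Socs3, Socs6 and Socs7 were higher in macrophages, and Cish, Socs1 and Socs2 were lower. Cish stood at 27.1 CPM in macrophages and 403 CPM in ILC2-like cells (-4.11 ± 0.18, adjusted p = 2.07e-12), and Socs2 was lower by -5.44 ± 0.23 (adjusted p = 1.15e-12). Of 13 glucocorticoid genes 6 were higher and 3 lower, and of 18 dissociation genes 8 were higher and 7 lower.

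Genes whose profile most resembled each member's were found over 12 class-by-library profiles, by Pearson correlation of log2(CPM + 1) among 9100 genes. The points share libraries, so these values are descriptions. Il10 was most like Gdf15 (r = 0.963), Stab1 (0.958) and C5ar2 (0.951), and Tgfb1 like Gpr183 (0.970), Kif23 (0.968) and Pstpip1 (0.962). Il10ra was most like Fermt3 (0.960), Cotl1 (0.957) and Nfatc2 (0.949), and Il10rb like Ctsa (0.976), Tbc1d14 (0.972) and Gna12 (0.968). Tgfbr1 had Tgfbrap1 (0.917), Chka (0.912) and Nrbf2 (0.909) nearest, and Tgfbr2 had Fer (0.990), Serpinb6a (0.958) and Nr1d1 (0.947). Socs3 had Mt2 (0.953), Tnfaip2 (0.942) and Luzp1 (0.940), and Tsc22d3 had Gpr34 (0.920), Akr1b3 (0.887) and Serinc3 (0.881).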

How the data were processed

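The authors deposited raw UMI counts per gene and barcode for each library, made with a 3' droplet kit, per the labels' protocols. The submitters' processing notes name Cell Ranger 3.1 and mm10, while the header of replicate 1 gives 3.0.0 and those of the other libraries 3.1.0. The annotation release is not given in the sources used here. Totals were 6777422, 13336484 and 11017170 UMIs, and no library was a copy of another (chi-square per degree of freedom 37.5 to 97.1).

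Macrophages needed 3 markers, 50 marker UMIs per 10000 and other-class marker UMIs under 20% of their own. Other classes needed 3 markers and 10 per 10000. Barcodes with mixed markers were set aside, which served to remove doublets, and removal by scrublet (scanpy 1.11.5) was an alternative. These gates were set after marker levels were seen. The members and gene lists were chosen with earlier results of these data known.

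Counts were summed per class and library (at least 20 cells each, in at least 2 libraries) and tested two-sided with edgeR 4.0.16 (filterByExpr, TMM, quasi-likelihood), with library as a block since each library gives both groups. Adjustment was by Benjamini-Hochberg over all genes tested, with calls at 0.05, and gate genes were kept out of the counts of calls. The SE of an edgeR fold change was worked back from the test, as the size of the log2 fold change over the square root of its F statistic. Profiles of monocyte-like cells and T or NK cells did not reach 20 cells in 2 libraries, so no test was made for them. The test was tried on counts simulated with the real totals, 1 fixed dispersion for all genes and no library effect. Real libraries also differed in gene levels, so the rates hold for that setting only. Of genes raised 2-fold and of genes lowered to 0.5 it recovered 37.0% and 31.4% for macrophages over dendritic cells and 45.5% and 39.2% over ILC2-like cells. Recovery was 26.2% and 18.5% for TLF over TLF-negative macrophages and 33.3% and 23.1% for the Il10 comparison. It was 0 of either for Ccr2-only over Cx3cr1-only macrophages. Named genes were the 8 members, at most 4 called genes per list and comparison by size of change, the 10 called genes furthest in each direction in the Il10 comparison, and the 3 genes most correlated with each member. Other genes named as called or not called, and the dendritic cell subsets, were chosen after their values were seen. Limits from a count of 0 use 3 counts and cover counting error only. Alternatives included DESeq2 1.42.0. A gene that this rule would name is not reported here.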

Additional observations from a re-analysis of the deposited data

Results flagged for a closer look

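Barcodes of replicate 2 that mixed markers of several classes and had under 1500 UMIs entered no comparison, yet held RNA of all 8 genes above the limit that a count of 0 allows. There were 395 of them. Il10 stood at 954.8 CPM in these barcodes, against 589.2 CPM in macrophages of the same library, and after thinning to 1000 UMIs it was found in 62.0% of them, against 24.4% of the macrophages. C1qa stood at 1304 CPM in these barcodes, against 3668 CPM in the macrophages. Il10rb stood at 318 CPM, Socs3 at 334 CPM, Tgfb1 at 212 CPM and Tsc22d3 at 217 CPM in the mixed barcodes. Il10ra stood at 194 CPM, Tgfbr2 at 122 CPM and Tgfbr1 at 72.9 CPM. What these barcodes hold was not tested. Groups of 3 libraries were too small to look for single outlying libraries.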

How the results depend on the processing

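Of 449 member fold changes under alternatives, 407 kept their direction and side of the threshold, 16 lost their call, 12 gained one and 14 turned sign. All 48 macrophage levels moved by less than 1 SD between libraries. Where 1 replicate was left out this was fixed in advance, since that cannot move a mean of 3 values by 1 SD. The SD was also wide (278 CPM beside a mean of 534 CPM for Il10), so these levels say little about robustness. None of the 14 that turned sign was called under either setting. Socs3 in macrophages over dendritic cells turned to 0.0048 with a 10% mitochondrial limit, 0.021 with no filter on low counts, 0.18 with no replicate block, 0.62 thinned to 1000 UMIs, and 0.24 and 0.36 without replicates 1 and 3 (-0.65 without replicate 2); Tgfb1 there turned to 0.12 thinned, and Il10ra to -0.12 without replicate 1. Between TLF and TLF-negative macrophages Il10rb turned to -0.37 thinned and Tgfb1 to -0.020 without replicate 2 (0.19 without replicate 1). Tgfb1 in Ccr2-only over Cx3cr1-only macrophages turned to -1.03 thinned. In the Il10 comparison Il10rb turned to -0.10 and Tgfbr1 to 0.25 among TLF macrophages alone, and Il10ra to -0.10 without replicate 3.

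Counts of called genes moved more. Macrophages over dendritic cells gave 3555 genes, 2345 with no replicate block, 954 thinned to 1000 UMIs and 2440 to 3870 with 1 replicate left out. Over ILC2-like cells the counts were 5123, 2011 thinned and 4269 to 5394 with 1 replicate left out. TLF over TLF-negative macrophages gave 1986, 559 with no replicate block, 923 in DESeq2, 674 thinned, and 674 to 3172 with 1 replicate left out. Ccr2-only over Cx3cr1-only macrophages gave 1, then 63 at 2000 UMIs, 16 in DESeq2, 4 with RLE size factors, 2 with doublets removed, 7 with the macrophage gate at 100 per 10000, 191 with no filter, 12 with no replicate block and 27 thinned. The Il10 comparison gave 247, then 88 in DESeq2, 0 by edgeR with no replicate block (435 genes at an unadjusted p under 0.05), 461 with unthinned counts, and 95 to 232 with 1 replicate left out. With no replicate block Socs3, Tsc22d3 and Tgfbr2 lost their calls in TLF macrophages (adjusted p = 0.678, 0.214 and 0.210), and Socs3 and Tsc22d3 theirs in the Il10 comparison (adjusted p = 0.646 and 0.726). Without the filter Il10 was called in TLF macrophages (adjusted p = 1.03e-11). The causes were not tested. The alternatives with a stricter macrophage gate, TLF macrophages alone and at least 3 Il10 UMIs were chosen after seeing the data. Alternatives for monocyte-like cells and T or NK cells were not run, nor was leaving out a replicate for Ccr2-only cells, where no residual degree of freedom would remain.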
